A study of Mus musculus with 16 samples.

Results

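Microglia sorted from the brains of mice injected with fibrillar α-syn were compared with microglia from mice injected with monomeric α-syn, over 8 of the 16 libraries of the series. The other 8 libraries hold brain macrophages. All microglia libraries were used: 4 from mice given α-syn pre-formed fibrils (PFF) and 4 from mice given α-syn monomer (MONO), pooled over genotype and over the letter F or M that opens the title of each library, and paired within those strata.

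The mice were CD163tm1.1(KOMP)Vlcg animals (CD163KO), which lack the hemoglobin scavenger receptor CD163, and their WT C57BL/6N littermates. They were 12 weeks old when murine PFF or MONO was injected into the striatum of both sides, and their brains were taken 2 months post-injection (p.i.). Each suspension held between 200000 and 500000 sorted microglia (CD11b-positive with low or intermediate CD45), and mRNA was read by the SMART-seq2 method, which copies full-length transcripts from small amounts of RNA. The 4 strata are F WT, F CD163KO, M WT and M CD163KO, where F and M stand for female and male in the study, with 1 MONO and 1 PFF library in each. No library came from uninjected mice or mice injected with saline, so the comparison is between forms of α-syn. The labels mention triplicates and do not say whether a library holds 1 of them or their pooled reads, and they name 2 batches of mice without assigning libraries to them. A p-value given here therefore measures only the spread between these libraries, which differ in genotype and sex as well.

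Microglia are the resident macrophages of the brain. At rest they express a set of homeostatic genes such as P2ry12 and Tmem119, and around amyloid or dying neurons a part of them takes up a disease-associated program with Apoe, Clec7a and Cst7. Immediate early genes, such as Fos, Jun and Egr1, encode short-lived regulators that are transcribed at once after many kinds of stimulus, with no need for new protein. Fibrils of α-syn can seed the aggregation of the endogenous protein, while the monomer is used as a control that does not seed.

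In each treatment 1 of the microglia libraries stood apart from the rest. The 10 most abundant genes took 47.7% of the counts of the MONO library of the M CD163KO stratum and 58.7% of those of the PFF library of the M WT stratum, against 13.5% to 16.4% in the other 6 libraries. The first of these is the combination that the study excluded for inconsistent technical replicates. Trimmed-mean (TMM) scaling gave them factors of 0.552 and 0.281, against 1.339 to 1.411 elsewhere, and the pair correlated more closely with each other (Pearson's r = 0.942 across genes) than any other 2 libraries did. The MONO library of the M WT stratum lay alone on the first principal component, which held 35% of the variance. The MONO library titled F CD163KO held transcripts of Y-linked genes, with Ddx3y at 19.1 CPM (counts scaled to library size) and Kdm5d at 9.28 CPM, while the other libraries titled F had at most 0.164 CPM of either. Results are therefore also given without single pairs and with the F pairs alone. Total counts per library lay between 8648751 and 18768238 (PFF against MONO, exact permutation test, two-sided, p = 0.257). The smallest value that 4 against 4 libraries allow is 0.0286. The F WT and M WT MONO libraries held 8716300 and 8648751 counts, and the other 6 held 16110256 or more. In both WT pairs depth and treatment therefore cannot be told apart, which bears most on genes with few counts.

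**Figure D1:**
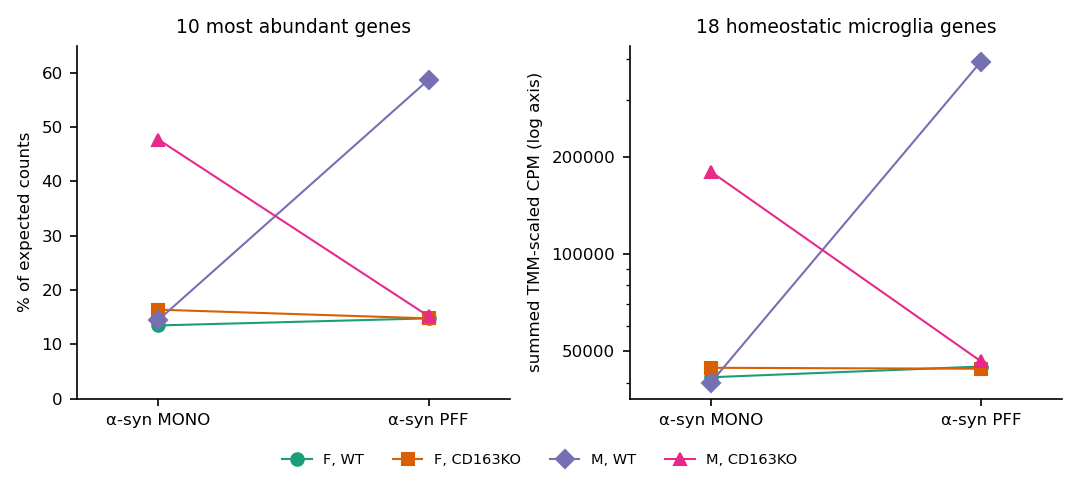
Share of expected counts taken by the 10 most abundant genes (left, %) and summed TMM-scaled CPM of 18 homeostatic microglia genes (right, log axis) in each of the 8 microglia libraries, with a line joining MONO and PFF within a stratum. The M CD163KO MONO library (47.7%) and the M WT PFF library (58.7%) lie far above the other 6 (13.5% to 16.4%). With TMM scaling they lie highest for the homeostatic genes as well. By median FPKM, which is not TMM-scaled, these genes were at 1200 and 871 there, and 871 is the lowest of the 8 libraries.

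The libraries expressed the markers of microglia. The median FPKM of the 18 homeostatic genes was between 871 and 1270, against 25.9 to 103 in the macrophage libraries of the same series. Border-associated macrophage markers had a median FPKM of 0.18 to 4.38 in microglia and 79.2 to 412 in macrophages, and neutrophil markers 5.86 to 19.6 against 94 to 1270. Cd163 itself reached at most 4.66 CPM in a microglia library, too low to check the genotype labels in these cells.

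No gene passed the threshold between PFF and MONO. Of 10903 genes with at least 1 CPM in at least 4 of the 8 libraries, 0 (0.0%) had an adjusted p of at most 0.05 in edgeR's quasi-likelihood test with the stratum as a block, and the smallest adjusted p was 0.998. At an unadjusted p under 0.05, 266 genes (2.44%) were higher and 104 (0.954%) were lower with PFF. Without the block these numbers were 207 and 206. DESeq2 on the same design called 10 genes and limma-voom called 0. The spread left after the strata were fitted gave a biological coefficient of variation of 0.574, and only 3 residual degrees of freedom were left. The median log2 fold change over all genes was 0.05, and with scaling by total counts alone it was -0.17. The values below are TMM-scaled CPM unless they are said to be something else. Because the test called nothing, the genes are described by their values in each library and by their direction over the 4 pairs.

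In all, 959 genes (8.8%) were higher with PFF in each of the 4 pairs, and 579 (5.31%) were lower in each. The 4 PFF libraries lay above all 4 MONO libraries for 204 genes (1.87%) and below all of them for 120 genes (1.1%). Among genes of the same direction in all pairs, a fitted log2 fold change of at least 1 in size was found for 331 that were higher and 84 that were lower. With the M CD163KO pair left out, 1960 genes (18%) were higher and 1469 (13.5%) lower in all 3 remaining pairs. In both F pairs, 3119 genes (28.6%) were higher and 2885 (26.5%) lower.

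The first 12 genes described had the smallest unadjusted p among those higher with PFF. Values are given for the F WT, F CD163KO, M WT and M CD163KO libraries, in this order throughout. Nfic, a transcription factor of the nuclear factor I family at chr10:81396191-81431919 (GRCm38, the build also called mm10), was at 38.0, 21.8, 20.5 and 27.7 CPM with MONO and at 96.5, 48.0, 48.4 and 60.6 CPM with PFF. With TMM scaling the treatments did not overlap. The difference was nearly the same in each stratum, at 1.20 ± 0.10 on the log2 scale (mean ± SD over 4 pairs, here and below). The unadjusted p of Nfic in edgeR's quasi-likelihood test was 0.000922, and 4 pairs of 4 were higher. In FPKM, which is not TMM-scaled, its M WT pair was at 4.59 with MONO and 2.17 with PFF. On that scale Slc25a22 alone of the 12 genes was higher with PFF in the M WT pair, at 0.05 and 0.66. The direction in that pair therefore depended on the scaling.

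Junb, at chr8:84976909-84978748, encodes a subunit of the dimeric transcription factor AP-1. It was at 578, 92.9, 128 and 77.6 CPM with MONO and at 1170, 368, 334 and 537 CPM with PFF. Every PFF library was above the MONO library of its own stratum, by 1.79 ± 0.77 on the log2 scale, but the F WT MONO library lay above 3 of the PFF libraries. Junb was the gene called by most of the alternative fits, 5 in all. In DESeq2, it was among the 10 genes called. With edgeR its unadjusted p was 0.00135 and its adjusted p 0.998, and its log2 fold change stayed between 1.21 and 2.12 in every alternative fit run.

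Cd274, which encodes the checkpoint ligand PD-L1 (chr19:29362107-29388095), was at 3.93, 4.63, 1.26 and 2.12 CPM with MONO and at 20.8, 21.0, 4.36 and 9.34 CPM with PFF. The difference was 1.93 ± 0.34 on the log2 scale, and only the M WT PFF library, at 4.36 CPM, fell within the range of the MONO libraries. Csf1, the growth factor that sustains microglia through the receptor Csf1r, was at 18.2, 3.35, 3.35 and 6.34 CPM with MONO and at 53.4, 17.8, 12.0 and 11.5 CPM with PFF. The log2 difference was 0.81 or more in each pair. The F WT stratum had the highest library of each treatment, and its MONO library lay above 3 of the PFF libraries. Bcl2l1, the anti-apoptotic protein Bcl-xL, was at 139, 63.3, 76.2 and 52.9 CPM with MONO and at 210, 220, 127 and 143 CPM with PFF, where the F WT MONO library lay above the lowest PFF library.

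Slc25a22, a mitochondrial glutamate carrier, had the widest difference of the 12, at 6.96, 1.04, 0.0837 and 3.03 CPM with MONO and 29.2, 12.1, 5.88 and 14.0 CPM with PFF. Its levels were low, and the M WT MONO library held close to none of it. Trim47, of the TRIM family of ubiquitin ligases, was at 16.9 to 36.4 CPM with MONO and 35.9 to 72.3 CPM with PFF, with a slight overlap. Triobp, which bundles actin filaments, was at 3.52 to 13.2 CPM with MONO and 14.6 to 30.3 CPM with PFF, without overlap. Fam222b was at 7.87 to 19.6 CPM with MONO and 27.9 to 36.3 CPM with PFF, without overlap, and Tmem104 at 21.7 to 66.4 CPM and 52.6 to 119 CPM, with overlap. The 2 remaining genes, Clec7a and Mbp, are described with their groups.

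The next 12 genes had the smallest unadjusted p among those lower with PFF. Rbm26, which encodes an RNA-binding protein (chr14:105106751-105181039), was at 73.0, 152, 151 and 110 CPM with MONO and at 35.7, 41.4, 73.4 and 40.6 CPM with PFF. The difference was -1.34 ± 0.40 on the log2 scale, and only the M WT PFF library, at 73.4 CPM, reached the lowest MONO value. It had the smallest unadjusted p of all, 0.000654 in edgeR's quasi-likelihood test. Tmf1, a Golgi-associated protein, was at 26.5, 108, 76.3 and 12.3 CPM with MONO and at 12.2, 9.12, 21.6 and 6.69 CPM with PFF. The difference was widest in the F CD163KO pair, and the groups overlapped.

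Cdkn1b, the cell-cycle inhibitor p27, was at 29.0, 37.9, 66.5 and 21.0 CPM with MONO and at 11.9, 12.1, 41.2 and 12.2 CPM with PFF. In 3 strata the PFF value was close to 12, and the M WT PFF library was the exception. Siah1a, a ubiquitin ligase, was at 14.2 to 21.6 CPM with MONO and 5.35 to 8.94 CPM with PFF, without overlap, although its reads may be shared with the near-identical Siah1b. Sgpp1, which dephosphorylates sphingosine 1-phosphate, was at 18.2 to 40.9 CPM with MONO and 8.46 to 12.2 CPM with PFF, without overlap. Acsl4, the acyl-CoA synthetase that prefers arachidonate, was at 42.4, 122, 144 and 94.6 CPM with MONO and at 30.9, 36.7, 71.4 and 41.8 CPM with PFF. The F WT MONO library was the lowest of its group, so that one PFF library lay above it.

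Gimap9, a GTPase of the Gimap family, was at 20.8 to 46.1 CPM with MONO and 10.4 to 16.5 CPM with PFF, and did not overlap. Crebzf, a leucine-zipper protein, was at 25.3 to 65.1 CPM with MONO and 12.5 to 23.3 CPM with PFF, and did not overlap either. The groups overlapped for Cdk8, a kinase of the Mediator complex, at 19.3 to 55.0 CPM and 7.02 to 22.6 CPM. They overlapped too for Ugt1a6b, a glucuronosyltransferase whose last exons are shared with the other Ugt1a genes, at 28.0 to 79.7 CPM and 9.61 to 37.2 CPM. Smim13 was at 15.8 to 25.8 CPM with MONO and 3.18 to 15.1 CPM with PFF, without overlap, and 1810013L24Rik at 43.4 to 109 CPM and 22.6 to 49.0 CPM, with overlap. None of these 24 genes had an adjusted p below 0.998 in edgeR's quasi-likelihood test.

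**Figure D2:**
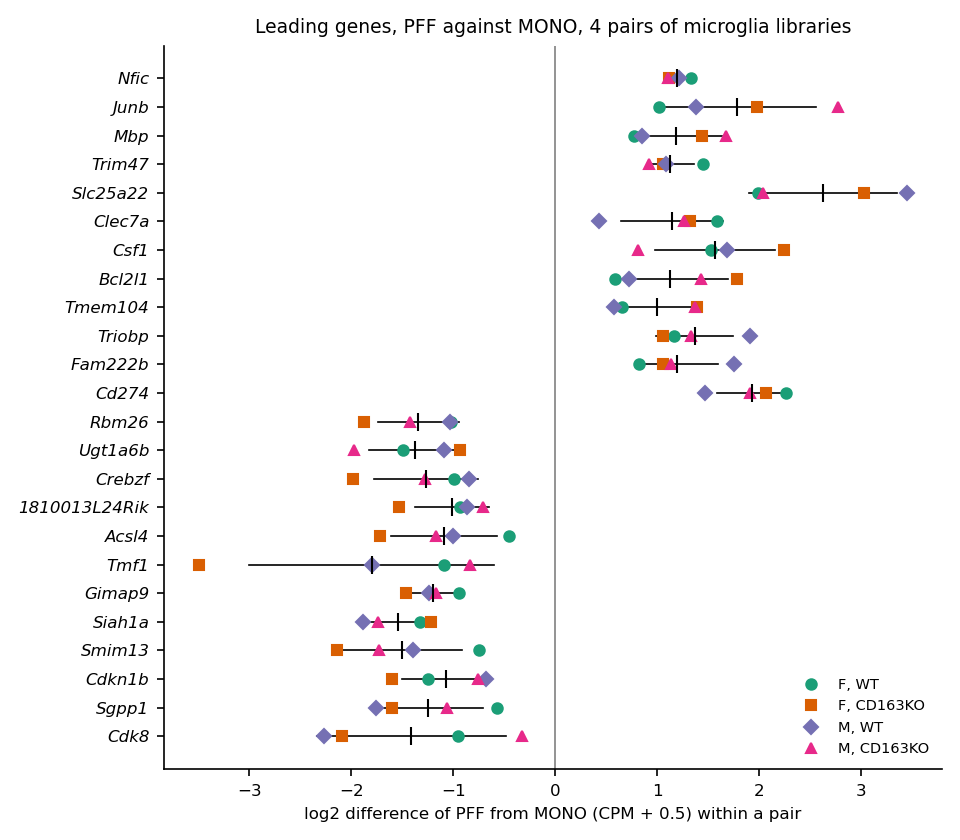
Difference between PFF and MONO within each of the 4 pairs, as log2 of the ratio of TMM-scaled CPM with 0.5 CPM added, for the 12 genes higher and the 12 lower with PFF that had the smallest unadjusted p; vertical ticks are means and black lines the SD over 4 pairs. The pairs of Nfic lie closest together (SD 0.10) and those of Tmf1 farthest apart (SD 1.20).

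With TMM scaling and all 4 pairs, the immediate early genes had the largest share higher with PFF in each pair among lists of more than 20 tested genes. The order held without the F WT pair and without the M WT pair, and it did not hold in several other settings. With the M CD163KO pair left out, the share was 60.9% for the immediate early, 69.2% for the disease-associated, 66.7% for the glycolysis and 64.1% for the lysosome list, and the disease-associated list, the glycolysis list or both also had a larger share with cyclic loess, quantile and total-count scaling, in the F pairs alone and without the F CD163KO pair. Of 23 immediate early genes tested, 9 were higher in each pair and 0 lower, against 8.8% and 5.31% of all genes. At an unadjusted p under 0.05, 8 were higher with edgeR (2.44% of all genes), and none had an adjusted p below 0.998. The median log2 fold change of the list was 0.78, beside 0.05 over all genes tested. By stratum the median difference was 0.97, 0.37, 0.58 and 0.51. The summed level of the listed genes was 6410, 3910, 3580 and 3150 CPM with MONO and 11400, 6770, 9870 and 5990 CPM with PFF. Each PFF library was above its own MONO library, and the F WT MONO library lay between the PFF libraries of the CD163KO strata.

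Fos, the partner of Jun proteins in AP-1, was at 639, 521, 343 and 388 CPM with MONO and at 1250, 822, 1460 and 818 CPM with PFF. No MONO library reached a PFF library, and the difference was 1.20 ± 0.62 on the log2 scale. Its unadjusted p was 0.014 in edgeR's quasi-likelihood test, and 4 of 4 pairs were higher. Dusp1, a phosphatase that switches off MAP kinases, was at 628, 556, 452 and 367 CPM with MONO and at 1070, 1500, 2500 and 653 CPM with PFF. These groups did not overlap either, and the M WT PFF library was the highest. Btg2, an anti-proliferative cofactor of mRNA deadenylation, was at 695, 589, 512 and 445 CPM with MONO and at 1130, 759, 1470 and 708 CPM with PFF, again without overlap.

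Jun was at 808, 279, 290 and 181 CPM with MONO and at 1270, 518, 434 and 715 CPM with PFF. Egr1, a zinc-finger transcription factor, was at 475, 221, 201 and 142 CPM with MONO and at 1070, 422, 264 and 312 CPM with PFF. Zfp36, the protein tristetraprolin that destabilizes cytokine mRNAs, was at 1180, 370, 374 and 352 CPM with MONO and at 2040, 832, 1600 and 949 CPM with PFF. All 3 overlapped between treatments through the F WT MONO library alone, whose values were above at least one PFF library of the other strata. Ier2 was at 63.9 to 187 CPM with MONO and 118 to 372 CPM with PFF. Dusp6, which acts on ERK kinases, completed the 9 with a small difference of 0.32 ± 0.15.

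The rest of the list did not share a direction over the pairs. Nr4a1, an orphan nuclear receptor, was higher in 3 pairs and at 39.3 and 35.9 CPM in the M WT pair. Atf3 was at 302 and 298 CPM in the M CD163KO pair and higher with PFF in the other 3. Jund, Klf4, Myc and Egr3 were higher in 2 pairs and lower in 2, and Ier5 and Fosl2 were lower in 3. Genes of neighbouring lists that also lay higher with PFF in all pairs were Nfkbia, the inhibitor of NF-kB, at 107 to 210 CPM with MONO and 183 to 351 CPM with PFF, and Ppp1r15a, the stress-induced phosphatase subunit GADD34, with a log2 fold change of 1.08. The chemokine gene Ccl4 was at 296, 252, 294 and 230 CPM with MONO and at 765, 417, 784 and 291 CPM with PFF, so that only the M CD163KO PFF library fell within the range of MONO.

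**Figure D3:**
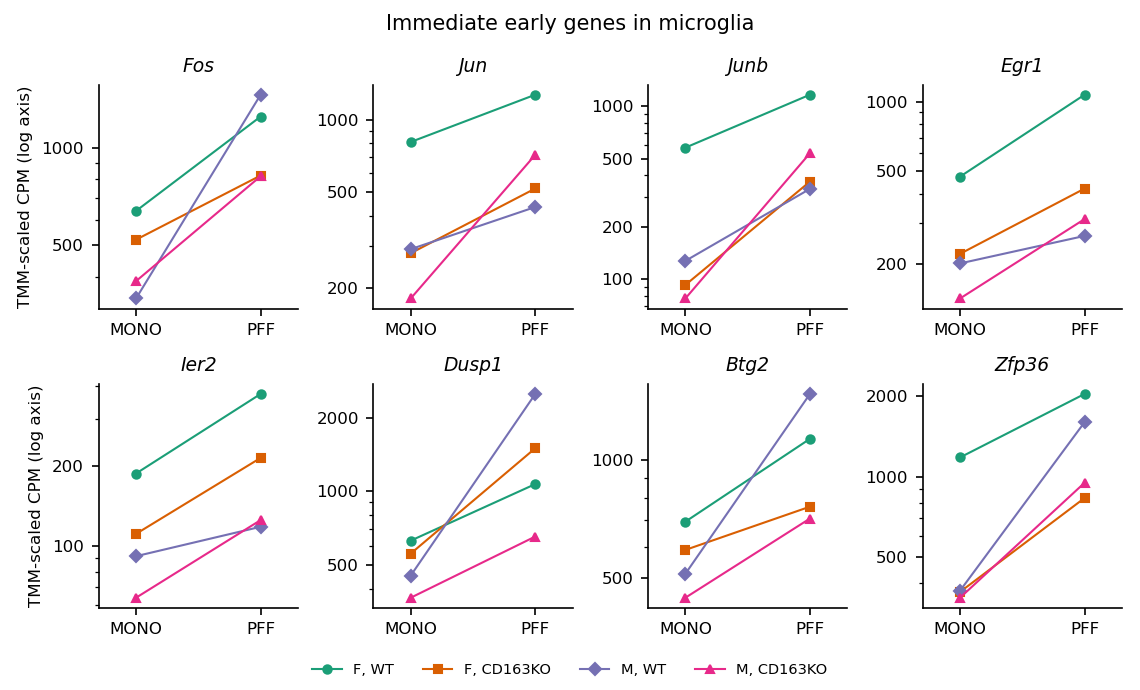
TMM-scaled CPM (log axis) of 8 immediate early genes in the 8 microglia libraries, with a line joining MONO and PFF within a stratum. With TMM scaling all lines go up, and the F WT stratum starts highest with MONO for each gene, for example at 578 CPM of Junb against 77.6 to 128 in the other strata.

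The counts of this group depended on the pairs kept and on how libraries were scaled. Without the M CD163KO pair, 14 of 23 were higher in the remaining 3 pairs, beside 18% of all genes. In the F pairs alone, 17 of 23 were higher in both, beside 28.6%, without the F CD163KO pair 9 of 23, beside 13.1%, and without the M WT pair 12 of 23, beside 15.9%. With scaling by total counts 1 of 23 was higher in all 4 pairs, beside 2.82% of all genes, and the median within-pair difference of the list was 0.42 while that of all genes was -0.20. Cyclic loess and quantile scaling were chosen after seeing the data. With each, 6 of 23 were higher in all 4 pairs, beside 7.63% and 7.66% of all genes. In both settings 1 was lower in all 4, beside 6.39% and 6.85%. Of the 23, 0 were without overlap above MONO and 1 was without overlap below. Of all 10903 genes, 163 and 158 were without overlap above, and 140 and 142 below. Pituitary transcripts were present in some of these libraries. Gh, growth hormone, was at 21.6 CPM in the F WT PFF library, 76.4 CPM in the M CD163KO PFF library and 9.08 CPM in the M CD163KO MONO library, and under 1 CPM in the other 5. The median immediate early difference was 0.37 and 0.58 in the F CD163KO and M WT strata, where both libraries were under 1 CPM of Gh, and 0.97 and 0.51 in the F WT and M CD163KO strata.

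The upstream sequences of Fos, Junb, Dusp1 and Btg2 are shown because, of the genes higher in each pair, these hold the core of the cyclic AMP response element (CRE), a well-known motif of such promoters. They were chosen for that match, so the sequences do not set the genes that were higher apart from the rest of the list. Each is the 250 bases before the annotated start (RefSeq, GRCm38.p6), read on the strand of the gene, 5′ to 3′. Capitals mark TGACG, the core of the CRE, on either strand, and TGACGTCA, the whole palindrome, which contains that core. The windows are chr12:85473640-85473889 on the plus strand for Fos, and chr8:84978749-84978998, chr17:26508473-26508722 and chr1:134079156-134079405 on the minus strand for Junb, Dusp1 and Btg2.
Fos: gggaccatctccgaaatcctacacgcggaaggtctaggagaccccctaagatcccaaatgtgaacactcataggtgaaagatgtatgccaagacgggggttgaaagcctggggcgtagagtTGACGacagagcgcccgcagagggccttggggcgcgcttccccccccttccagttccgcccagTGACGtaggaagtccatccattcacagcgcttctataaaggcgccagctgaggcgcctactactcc
Junb: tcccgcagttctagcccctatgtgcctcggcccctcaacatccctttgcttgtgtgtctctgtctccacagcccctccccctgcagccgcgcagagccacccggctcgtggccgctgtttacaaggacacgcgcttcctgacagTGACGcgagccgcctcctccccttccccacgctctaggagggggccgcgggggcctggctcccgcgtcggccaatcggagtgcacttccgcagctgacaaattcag
Dusp1: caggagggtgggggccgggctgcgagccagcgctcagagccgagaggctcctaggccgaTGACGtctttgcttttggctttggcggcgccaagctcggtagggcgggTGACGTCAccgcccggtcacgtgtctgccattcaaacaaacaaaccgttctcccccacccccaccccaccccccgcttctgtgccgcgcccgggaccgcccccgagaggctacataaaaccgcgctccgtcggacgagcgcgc
Btg2: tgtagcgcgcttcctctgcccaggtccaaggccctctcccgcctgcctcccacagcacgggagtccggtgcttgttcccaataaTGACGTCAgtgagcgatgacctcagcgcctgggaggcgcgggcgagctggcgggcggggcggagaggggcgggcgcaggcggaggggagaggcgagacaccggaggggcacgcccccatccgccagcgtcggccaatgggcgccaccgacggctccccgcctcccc

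Dusp1 carries the whole palindrome beginning 143 bases before its start and Btg2 at 166 bases, while Fos and Junb carry the core alone, Fos at 129 and 66 bases and Junb at 106. Of the 19 tested immediate early genes with a promoter entry, 9 held the core and 2 the palindrome on either strand. Jun, Zfp36 and Dusp6, which were also higher in each pair, held no core, while Fosb, Atf3, Klf2, Klf4 and Nr4a1, which did not share a direction over the pairs, held it. The core was in 17.8% and the palindrome in 1.55% of all 32851 promoter windows of this length. The AP-1 motif TGANTCA was in 0 of the 19 and in 6.75% of all, and the CArG box, the motif bound by serum response factor, was in 1 of the 19 and in 1.47% of all. A match of letters describes the window and does not show that a factor was bound.

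Genes of the disease-associated program lay higher with PFF more often than lower. Of 26 tested, 8 were higher in all 4 pairs (8.8% of all genes), 1 was lower (5.31%), and 5 were higher at an unadjusted p under 0.05 with edgeR (2.44%). The median log2 fold change was 0.68, and 0.05 over all genes. The strata differed, with medians of 0.32, 0.50, 1.72 and 0.05, and the M WT and M CD163KO values are those that hold the 2 libraries that stood apart. The summed level of the list was 18400 to 26000 CPM in the 3 other MONO libraries and 29200 to 33600 CPM in the 3 other PFF libraries, against 66500 CPM in the M CD163KO MONO library and 177000 CPM in the M WT PFF library.

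Clec7a, the beta-glucan receptor dectin-1 (chr6:129461591-129472785), was at 20.0, 25.3, 30.4 and 17.8 CPM with MONO and at 61.2, 64.0, 41.2 and 43.6 CPM with PFF. The 4 PFF libraries were above the 4 MONO libraries, by 1.15 ± 0.50 on the log2 scale, and the unadjusted p was 0.00378 in edgeR's quasi-likelihood test. Cst7, the protease inhibitor cystatin F (chr2:150570415-150578944), was at 5.49, 11.9, 8.62 and 7.97 CPM with MONO and at 14.5, 21.2, 14.8 and 22.1 CPM with PFF. It too did not overlap, and its pairs were close together at 1.07 ± 0.35. With TMM scaling neither gene was raised in the 2 libraries that stood apart, M CD163KO MONO and M WT PFF. For Clec7a each of them was the lowest library of its own treatment. In FPKM Clec7a was at 13.4, 16.3, 20.1 and 4.64 with MONO and at 39.4, 40.9, 5.52 and 27.8 with PFF. On that scale the groups overlapped through the M WT PFF library.

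Apoe, the lipid carrier apolipoprotein E, was at 2750, 1730, 1830 and 2540 CPM with MONO and at 4260, 3490, 29400 and 3490 CPM with PFF. The groups did not overlap, but the M WT PFF library was far above the other 3, and the unadjusted p was 0.129 in edgeR's quasi-likelihood test. Without that library the PFF values were between 3490 and 4260 CPM. Axl, a receptor for apoptotic cells, was at 36.7, 12.0, 28.0 and 15.2 CPM with MONO and at 61.3, 23.2, 29.4 and 44.3 CPM with PFF, with overlap. Gpnmb, a transmembrane glycoprotein of lysosomal stress, was not listed in the F WT and M WT MONO libraries, at 2.22 and 0.101 CPM in the CD163KO MONO libraries, and at 1.20, 3.71, 5.31 and 4.41 CPM with PFF. These levels are near the detection limit. Ank and Fabp5 were higher in all 4 pairs as well, and Lpl, lipoprotein lipase, was lower in all 4, with a difference of -0.30 ± 0.08.

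**Figure D4:**
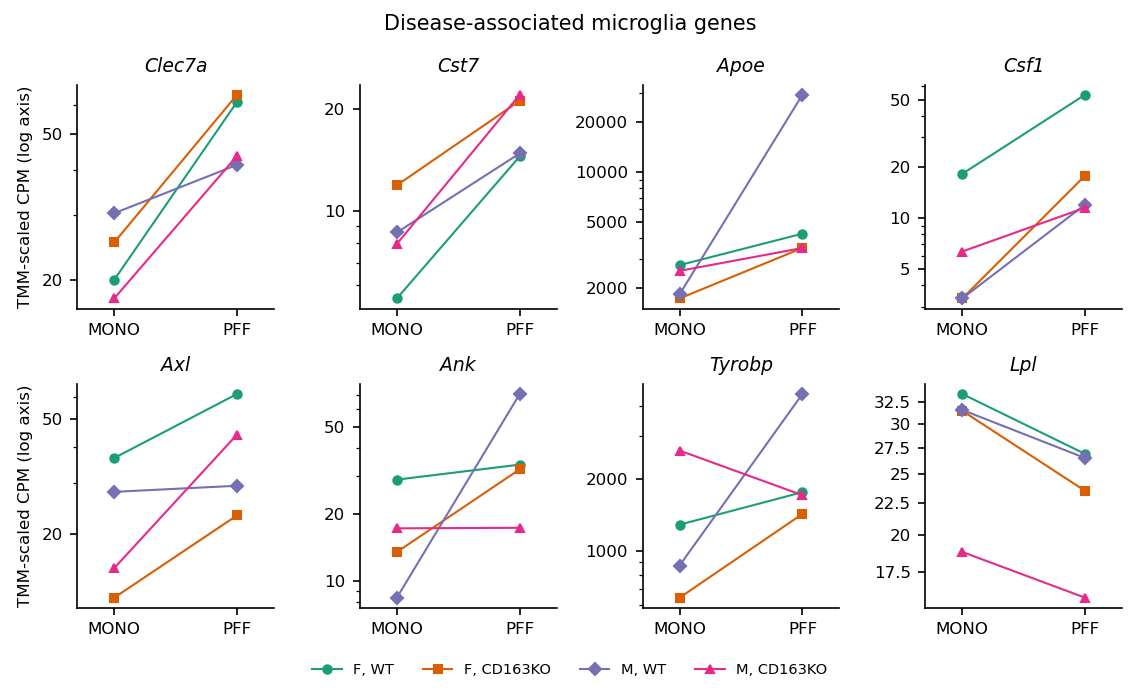
TMM-scaled CPM (log axis) of 8 genes of the disease-associated list in the 8 microglia libraries, with a line joining MONO and PFF within a stratum. For Clec7a, Cst7 and Apoe every PFF library lies above every MONO library. Tyrobp shows the opposite slopes of the M WT and M CD163KO pairs, at 873 to 4500 CPM and 2620 to 1710 CPM, and Lpl goes down in each pair.

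Other members were highest in the 2 libraries that stood apart. Ctsd, the protease cathepsin D, was at 11100, 5910, 7120 and 37500 CPM with MONO and at 14000, 10800, 91600 and 13600 CPM with PFF. Trem2, the lipid receptor on which the full program depends, was at 1330 to 4140 CPM with MONO and 1770 to 5750 CPM with PFF. Both were higher with PFF in 3 strata and lower in M CD163KO. Without the M CD163KO pair, 18 of 26 genes of the list were higher in all 3 remaining pairs, beside 18% of all genes. In the F pairs alone, which contain neither of the 2 libraries, 18 of 26 were higher in both, beside 28.6% of all, with a median within-pair difference of 0.45 beside 0.02. Without the M WT pair 8 of 26 were higher, beside 15.9% of all genes, and the median within-pair difference was 0.18, against 0.69 with all pairs. Without the F CD163KO pair the count was 11 of 26, beside 13.1%, and with scaling by total counts 7 of 26, beside 2.82%.

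Of the 18 homeostatic genes tested, 2 were higher in all 4 pairs (8.8% of all genes) and 0 lower (5.31%). Without the M CD163KO pair 10 of 18 were higher and 0 lower, beside 18% and 13.5% of all genes, and in the F pairs alone 10 were higher and 2 lower, beside 28.6% and 26.5%. Without the M WT pair 2 were higher and 2 lower, beside 15.9% and 14.4%, and the median within-pair difference turned from 0.30 to -0.22. Their median difference was 0.12 and 0.10 in the F WT and F CD163KO pairs, 2.13 in M WT and -1.07 in M CD163KO. This spread between pairs depended on the scaling. The median within-pair difference was 0.30 with TMM (SD of the pair medians 1.33) and 0.02 with total counts (0.16). Cyclic loess and quantile scaling gave -0.02 each (0.07 and 0.09). P2ry12, the ADP receptor that guides microglial processes, was at 2330, 3680, 3420 and 10100 CPM with MONO and at 2160, 2520, 29300 and 2470 CPM with PFF. It was lower with PFF in 3 pairs and higher in M WT. Cx3cr1, the fractalkine receptor, was higher in all 4, at 1350 to 2780 CPM with MONO and 1770 to 4340 CPM with PFF. Sall1, a transcription factor that defines microglia, was at 312 to 577 CPM with MONO and 387 to 534 CPM with PFF. A bulk library cannot tell a smaller share of cells of one kind from less RNA per cell.

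Antigen presentation by MHC class II leaned the same way in most libraries. Of 9 tested genes, 4 were higher in all 4 pairs (8.8% of all genes) and 0 lower (5.31%). H2-Aa was at 30.0, 47.7, 37.4 and 36.8 CPM with MONO and at 75.0, 69.9, 55.2 and 38.5 CPM with PFF, and its M CD163KO pair was nearly level. Cd74, the invariant chain, was at 305, 369, 442 and 178 CPM with MONO and at 464, 603, 498 and 280 CPM with PFF. H2-Ab1 and H2-Eb1 completed the 4, the groups overlapped for each, and none of the 9 had an unadjusted p under 0.05 with edgeR. In the absence of the M CD163KO pair 6 of the 9 were higher in the 3 remaining pairs, beside 18% of all genes. Total-count scaling gave 0 of the 9 higher in all 4 pairs (2.82% of all genes). Cyclic loess and quantile scaling gave 4 of the 9 each (7.63% and 7.66%). For MHC class I, 2 of 16 were higher in all 4 pairs (8.8% of all genes), both without overlap (1.87%). With cyclic loess and quantile scaling 0 of 16 were higher in all 4, beside 7.63% and 7.66% of all genes. The count was 7 of 16 without the M CD163KO pair, beside 18%. H2-D1 was at 568 to 1010 CPM with MONO and 1150 to 2220 CPM with PFF, although class I genes are near-identical and their reads may be split. Tapbp, the peptide-loading protein tapasin, was at 393 to 429 CPM and 452 to 724 CPM.

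Among metabolic genes, glycolysis had 6 of 24 members higher in all 4 pairs (8.8% of all genes) and 0 lower (5.31%). With edgeR, 4 were higher at an unadjusted p under 0.05 (2.44% of all genes). Slc16a3, the lactate exporter MCT4, was at 41.5, 13.1, 15.2 and 33.6 CPM with MONO and at 64.3, 36.4, 31.1 and 52.7 CPM with PFF. Its 4 pairs differed by 0.93 ± 0.38, with overlap between the groups. Slc2a3, the glucose transporter GLUT3, was at 0.492, 4.12, 0.0837 and 3.63 CPM with MONO and at 7.53, 8.59, 6.83 and 10.8 CPM with PFF, without overlap but at low levels. Pfkfb3, which makes the main activator of phosphofructokinase, was at 34.7 to 120 CPM and 71.2 to 163 CPM. Leaving out the M CD163KO pair, 16 of 24 were higher in the 3 remaining pairs, beside 18% of all genes. In the F pairs alone, 19 of 24 were higher in both, beside 28.6% of all genes, and with total-count scaling 1 of 24 was higher in all 4 pairs, beside 2.82%. Of 51 oxidative phosphorylation genes 1 was higher in all 4 pairs, Cyc1 of complex III, at 68.1 to 82.5 CPM with MONO and 99.3 to 106 CPM with PFF, and 0 were lower. These shares were 1.96% and 0.0%, beside 8.8% and 5.31% of all genes, and without the M CD163KO pair 13 of 51 were higher, beside 18%.

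Lists of protein and organelle turnover were mixed. Autophagy had 6 of 31 higher (8.8% of all genes) and 1 lower (5.31%) in all 4 pairs. With total-count scaling 0 of 31 were higher, beside 2.82% of all genes. Atg9a, the lipid scramblase of the growing autophagosome, was at 11.1, 19.0, 21.0 and 18.9 CPM with MONO and at 29.7, 39.5, 24.1 and 33.5 CPM with PFF, without overlap. Lysosomal genes had 4 of 39 higher, or 10.3%, which is near the 8.8% of all genes, and 0 lower (5.31%). Lipa, the lysosomal acid lipase, was the member without overlap, at 56.2 to 92.7 CPM with MONO and 93.2 to 104 CPM with PFF. Without the M CD163KO pair 25 of 39 lysosomal genes were higher in the 3 remaining pairs, beside 18% of all genes, and in the F pairs alone 28 of 39, beside 28.6%. Without the M WT pair the count was 6 of 39, beside 15.9% of all genes, and with total-count scaling 2 of 39, beside 2.82%. Of the proteasome genes, 2 of 34 were higher (5.88%, beside 8.8% of all genes) and 4 lower (11.8%, beside 5.31%) in all 4 pairs.

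In the unfolded protein response, 4 of 22 were higher (8.8% of all genes) and 1 lower (5.31%) in all 4 pairs. Of the higher ones 3, Hyou1, Sel1l and Sdf2l1, did not overlap (1.87% of all genes). Hyou1, a chaperone of the endoplasmic reticulum, was at 9.21 to 11.8 CPM with MONO and 14.2 to 22.8 CPM with PFF. Of the 26 tested type I interferon genes 3 were higher in all 4 pairs, or 11.5%, which is close to the 8.8% of all genes. Ifi27l2a, at 6.47 to 12.2 CPM and 13.3 to 21.0 CPM, and Isg15, at 1.09 to 2.62 CPM and 3.61 to 4.71 CPM, did not overlap. They are 2 of 26, beside 1.87% of all genes. Complement had 4 of 13 higher in all 4 pairs (8.8% of all genes). The count was 1 with total-count (2.82% of all genes), 2 with cyclic loess (7.63%) and 4 with quantile scaling (7.66%). C1qb, a chain of the initiating C1q complex, was at 7340, 7170, 6430 and 59900 CPM with MONO and at 8400, 8890, 146000 and 8950 CPM with PFF, highest in the 2 libraries that stood apart. Among the 4 was C5ar1, the receptor for C5a, at 59.8 to 149 CPM with MONO and 123 to 157 CPM with PFF. Of the 25 genes of inflammatory cytokines and NF-kB, 2 were higher in all 4 pairs (8.8% of all genes), Il1a and Nfkbia, and 1 was lower (5.31%), Casp1. Tnf was at 28.1, 6.25, 15.2 and 11.5 CPM with MONO and at 72.8, 29.4, 13.5 and 9.80 CPM with PFF, higher in the F pairs and lower in the M pairs. When the M CD163KO pair was left out, autophagy had 8 of 31 higher in the 3 remaining pairs. The unfolded protein response had 6 of 22, interferon 7 of 26 and complement 7 of 13. Cytokines had 6 of 25 and the proteasome 4 of 34, beside 18% of all genes. The counts lower in these 3 pairs were 6, 4, 1, 0, 2 and 5 in the same order, beside 13.5% of all genes.

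Other genes without overlap were Bambi, a decoy receptor of TGF-beta, at 0.0837 to 2.29 CPM with MONO and 3.88 to 8.59 CPM with PFF, and Nrros, which tethers latent TGF-beta to microglia, at 182 to 291 CPM and 310 to 340 CPM. Alas1, the first enzyme of heme synthesis, was at 46.7 to 73.9 CPM and 79.1 to 131 CPM. Hvcn1, the proton channel that serves NADPH oxidase, was at 93.9 to 144 CPM and 155 to 217 CPM. Atm, a kinase of the DNA damage response, was at 5.32 to 8.88 CPM and 10.4 to 16.2 CPM. Each list of these genes held at most 2 members of this kind, and each such gene was picked by its lack of overlap, so the values are a description.

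**Figure D5:**
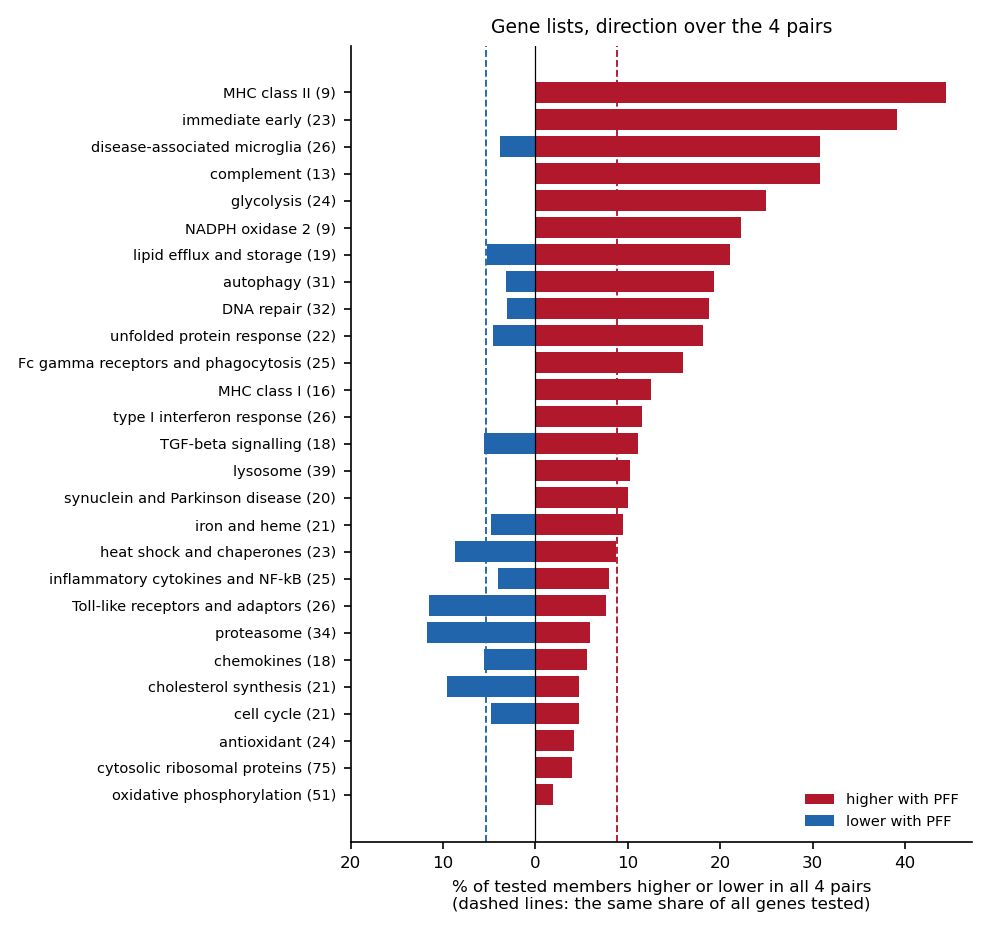
Share of the tested members of each gene list (number tested in brackets) that were higher (red) or lower (blue, drawn to the left) with PFF in all 4 pairs of microglia libraries with TMM scaling; dashed lines mark the shares of all 10903 genes, 8.8% and 5.31%. MHC class II, with 4 of 9, and immediate early genes, with 9 of 23, have the longest red bars.

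Transcripts of other cells were present in each library. Of the myelin and oligodendrocyte genes, 2 of 10 were higher in all 4 pairs (8.8% of all genes), and 2 were higher at an unadjusted p under 0.05 with edgeR (2.44%). The median log2 fold change of this list was 0.88, above the 0.78 of the immediate early and the 0.68 of the disease-associated list, and its median differences by stratum were 0.35, 1.74, -0.61 and 0.70. In the F pairs alone 7 of 10 were higher, beside 28.6% of all genes, with a median within-pair difference of 1.11. Without the M WT pair 6 of 10 were higher, beside 15.9%. Leaving out the F CD163KO pair gave 2 of 10 higher and 1 lower, beside 13.1% and 8.78%. The median within-pair difference was then -0.11, against 0.48 with all pairs. Mbp, myelin basic protein and one of the 12 leading genes, was at 86.0, 27.4, 26.5 and 25.0 CPM with MONO and at 147, 75.4, 48.2 and 81.4 CPM with PFF, with overlap through the F WT MONO library. The summed level of that list was 131 to 269 CPM with MONO and 170 to 344 CPM with PFF. The part of these transcripts in the values of Mbp and of the other lists was not tested. Neutrophil markers summed to 458 to 1170 CPM with MONO and 395 to 3080 CPM with PFF. Of 10, 0 were higher and 1 lower in all 4 pairs, beside 8.8% and 5.31% of all genes. The neutrophil calprotectin gene S100a8 was at 142 to 399 CPM with MONO and 126 to 1030 CPM with PFF. Choroid plexus markers summed to 683 to 3180 CPM and 761 to 1760 CPM, with 0 of 9 higher (8.8% of all genes) and 1 lower (5.31%) in all 4 pairs. Without the F CD163KO pair 6 of these 9 were lower in the 3 remaining pairs, beside 8.78% of all genes. Of them 4 were without overlap, beside 349 of all 10903 genes, and the median within-pair difference was -1.15. Enpp2, the lysophospholipase autotaxin, was at 494, 326, 1460 and 315 CPM with MONO and at 237, 818, 325 and 205 CPM with PFF, higher with PFF in the F CD163KO pair alone. The part of these transcripts in the results was not tested.

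The difference between PFF and MONO was also tested between strata. For the interaction with genotype, edgeR's quasi-likelihood test called 0 genes, with 523 at an unadjusted p under 0.05, and DESeq2 called 11. For the interaction with the title letter, edgeR called 0, with 98 at an unadjusted p under 0.05, and DESeq2 called 4. For the title letter Ddx3y was among the 6 leading genes, and its transcripts in the F CD163KO MONO library are those given above. The study named genes for PFF against MONO in microglia of females, within each genotype, which is another set of groups than the pairs pooled here. Of 15 of those genes, 4 passed the filter over all 8 libraries, and 0 were of the same direction in all 4 pairs.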

How the data were processed

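SMART-seq2 libraries of sorted microglia (8) and macrophages (8) were used as deposited. Per the labels, the authors mapped reads with Bowtie2 to mm10 and estimated expression with RSEM. The deposited values are expected counts per RefSeq transcript, not normalized, and FPKM, which the authors scaled to transcript length and assigned reads. A transcript that a table did not list was set to 0. Both units were summed by symbol (27632 of 27787 transcripts, GRCm38.p6) to 18580 genes, 18292 of them in microglia, and counts were rounded.

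The 4 PFF and 4 MONO libraries were compared with edgeR 4.0.16 (R 4.3.3; quasi-likelihood test, TMM scaling, stratum block, at least 1 CPM in at least 4 libraries), with Benjamini-Hochberg adjustment and a threshold of 0.05. Alternatives used limma 3.58.1, DESeq2 1.42.0, other scalings and left-out pairs. Other steps ran in Python 3.11.15 (scipy 1.17.1, numpy 2.4.6, pandas 2.3.3). The pooled fit was tested on simulated counts. It called 4.4% of 2-fold, 57.2% of 4-fold and 78.8% of 8-fold changes, and 0.0392% of unchanged genes. Within-pair differences are log2 ratios of CPM with 0.5 added, which understates changes of low genes. Total expected counts were 8648751 to 18768238 per library, and PCR reads carry no molecular identifiers, so depth covers counting error only. Libraries are not assigned to batches of mice in the labels, so no within-batch value could be had.

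Genes are named by a rule: the 12 higher and 12 lower with PFF with the smallest unadjusted p among those of 1 direction in all 4 pairs and a log2 fold change of at least 1, list members whose treatments did not overlap (or, lacking these, the most abundant), hormone, Y-linked and Cd163 transcripts, genes of the study, the 5 most abundant genes, and the 3 leading genes of either sign in each interaction. Other named list members were chosen after their values were seen. The members compared and the 41 gene lists were chosen with earlier results of these data known. A few genes that the rule names are not reported here.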

Additional observations from a re-analysis of the deposited data

Results flagged for a closer look

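In 76 groups of 4 libraries tested for a library far from the other 3 (Dixon's test at the 95% level, which chance passes in about 1 of 20), 17 were found. The share of counts in the 10 most abundant genes was 47.7% in the M CD163KO MONO library, against 13.5% to 16.4% in the other MONO libraries, and 58.7% in the M WT PFF library, against 14.8% to 15.2%. The same libraries stood apart in the summed TMM-scaled CPM of 3 lists. Homeostatic genes summed to 180000 CPM in the M CD163KO MONO library and 394000 CPM in the M WT PFF library, where the others lay between 40000 and 46600 CPM. Genes of the disease-associated list summed to 66500 and 177000 CPM, and glycolysis genes to 9660 and 11300 CPM. Pituitary transcripts summed to 13.2 CPM in the M CD163KO MONO library, above the 1.54 CPM at most of the other MONO libraries.

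The F WT MONO library stood apart for Junb at 578 CPM (77.6 to 128 in the other MONO libraries), for Mbp at 86.0 CPM (25.0 to 27.4) and for Siah1a at 14.2 CPM (21.1 to 21.6). The F WT PFF library stood apart for Csf1 at 53.4 CPM (11.5 to 17.8 in the other PFF libraries). The M WT PFF library did so for Rbm26 at 73.4 CPM (35.7 to 41.4) and for Cdkn1b at 41.2 CPM (11.9 to 12.2). Siah1a was at 8.94 CPM in the F CD163KO PFF library (5.35 to 5.95 in the others), and Sgpp1 at 8.46 CPM in the M CD163KO PFF library (11.6 to 12.2). The cause of these values was not tested.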

How the results depend on the processing

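The 4 pairs and the lack of saline-injected mice limit what can be said, and 1 library of each treatment had a different composition. With edgeR's quasi-likelihood test, 0 genes were called under the 2 other models of the strata, DESeq2 size factors, total counts, at least 5 CPM, and without each pair in turn, and limma called 0 on voom, FPKM, loess and quantile values. The exceptions were DESeq2 with 10 genes (Junb, Zfp36, Cd274, Nfic, Slc25a22, Ccdc3, Ppp1r1b and Zfp768 higher, Rbm26 and Ugt1a6b lower), no filter on low counts with 6, and 4 alternatives chosen after seeing the data: the share of the 10 most abundant genes as a covariate with 6, DESeq2 without the M CD163KO pair with 32, and additive models without the M CD163KO MONO and M WT PFF libraries, with 4 in limma-voom and 83 in DESeq2. The cause of these differences was not tested.

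At an unadjusted p under 0.05, the main count was 370. It was 413 without the stratum block (207 higher and 206 lower), 797 in DESeq2, 73 with total counts, 620 with no filter, 72 on FPKM, and 142 (without F CD163KO) to 758 (without M WT) when 1 pair was left out, with 572 without M CD163KO and 244 without F WT. Among alternatives added later it was 887 without both M pairs, 839 in the additive edgeR model without the 2 libraries, 765 with library weights, 1267 with the covariate, 601 with quantile scaling, 1419 and 1270 in limma-voom and DESeq2 without the 2 libraries, and 1044 in DESeq2 without the M CD163KO pair. The strata are a block of the design and not matched animals: deviations from the group means correlated at 0.10, 0.24, -0.20 and -0.08 in the F CD163KO, F WT, M CD163KO and M WT pairs.

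The interaction with genotype called 123 genes with no filter and 11 with DESeq2, and that with the title letter called 4 and 4. Genes higher in all pairs numbered 307 with total counts, 1432 to 1960 without 1 pair and 3119 in the F pairs alone. Genes lower numbered 280, 957 to 1570 and 2885. Genes without overlap numbered 11, 519 to 771 and 1973 above, and 64, 349 to 682 and 1839 below, where fewer pairs make agreement more frequent by construction.

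Of 1235 values of 54 genes under these alternatives, 1223 kept their direction. The 12 that reversed were Sdf2l1 on FPKM (-0.0); Cnpy4 without the F CD163KO pair (0.06) and without both CD163KO pairs (0.09); Mcm8 without the M CD163KO pair with edgeR (0.2) and DESeq2 (0.17) and in limma-voom without the 2 libraries (0.12); and Kyat1 without the M CD163KO pair with edgeR (0.31) and DESeq2 (0.28), without the F CD163KO pair (0.11), without both M pairs (0.31), without both CD163KO pairs (0.87) and in limma-voom without the 2 libraries (0.01). Without 1 pair each in turn, the values lay between -0.27 and 0.06 for Cnpy4, between -1.04 and 0.2 for Mcm8, and between -0.65 and 0.31 for Kyat1. Of 410 list medians, 33 moved by more than the SD over pairs.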

Other observations

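Slc41a1, a magnesium transporter, was higher with PFF in all 4 pairs, at 1.80 to 11.6 CPM with MONO and 7.02 to 20.0 CPM with PFF. Among genes called by DESeq2 but low in these libraries, Ccdc3 was at 0.605 CPM in 1 MONO library and was not listed in the other 3, and at 2.63, 3.40, 33.4 and 1.53 CPM with PFF. Exog, a mitochondrial nuclease, was at 23.5 and 22.5 CPM in the F MONO libraries and at 0.251 CPM or less in the M MONO libraries, while all PFF libraries held 9.66 to 35.5 CPM.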
